A study of Mus musculus with 24 samples.

Results

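The apolipoprotein genes Apoa1, Apoa2, Apoa4, Apob, Apoc3 and Apoe were described in mouse liver. They are 6 of the 35974 genes in the expression table, were taken by name, and all 6 were among the 4875 genes tested. The study sequenced RNA from 24 liver libraries of C3H/HeJ mice in 6 groups of 4. The genotypes were transgenic (TGA in the sample titles) and wild type (WT), and each genotype had libraries with the title suffix 2, 4 or 8, called class 2, class 4 and class 8 here because the labels do not explain the suffix. The groups were therefore TGA class 2, TGA class 4, TGA class 8, WT class 2, WT class 4 and WT class 8, numbered 1 to 4 within each. The sources used here name neither the transgene nor its promoter nor the age of the mice. Nothing states that the 4 libraries of a group came from separate animals, so p-values measure the spread between libraries, which may be technical, and nothing states whether a number marks the same animal in each class.

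Apolipoproteins are the protein part of lipoproteins, the particles that carry lipid in blood, and hepatocytes secrete most of them. Apoa1 and Apoa2 are the main proteins of high-density lipoprotein, whereas Apob is the structural protein of very-low-density and low-density lipoprotein and stays with its particle. Apoe is the ligand by which remnant particles are taken up through receptors of the LDL receptor family, Apoc3 inhibits lipoprotein lipase and slows that uptake, and Apoa4 is secreted with triglyceride-rich particles.

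Promoter windows of 4 members are shown as the sequence context of the values that follow. Apoa1 and Apoe are shown because they are the members that passed a test, and Apoa2 and Apob because their windows hold a motif searched for. Each window covers 250 bases before to 50 bases after a RefSeq transcript start of build GRCm38.p6, 5′ to 3′ on the gene's strand, in lower case with motif matches in capitals. The windows lie at chr9:46228380-46228679 on the plus strand for Apoa1, chr7:19699139-19699438 on the minus strand for Apoe, chr1:171224804-171225103 on the plus strand for Apoa2 and chr12:7977427-7977726 on the plus strand for Apob.
Apoa1: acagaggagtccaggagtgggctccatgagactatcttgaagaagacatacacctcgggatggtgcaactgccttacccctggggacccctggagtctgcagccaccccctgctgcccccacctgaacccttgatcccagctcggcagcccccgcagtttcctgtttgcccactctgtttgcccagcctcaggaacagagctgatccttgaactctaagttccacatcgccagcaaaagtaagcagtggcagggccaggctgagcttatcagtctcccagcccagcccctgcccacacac
Apoe: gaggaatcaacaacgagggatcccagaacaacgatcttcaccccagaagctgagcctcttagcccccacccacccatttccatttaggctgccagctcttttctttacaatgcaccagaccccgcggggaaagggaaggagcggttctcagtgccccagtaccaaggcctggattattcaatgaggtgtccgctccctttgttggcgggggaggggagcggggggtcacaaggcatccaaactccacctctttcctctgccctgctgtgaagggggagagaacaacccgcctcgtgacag
Apoa2: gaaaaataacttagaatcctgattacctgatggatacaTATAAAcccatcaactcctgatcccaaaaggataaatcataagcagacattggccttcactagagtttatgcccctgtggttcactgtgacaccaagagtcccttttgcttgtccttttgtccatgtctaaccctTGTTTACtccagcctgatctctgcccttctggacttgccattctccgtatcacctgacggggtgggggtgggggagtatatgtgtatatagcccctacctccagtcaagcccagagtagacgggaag
Apob: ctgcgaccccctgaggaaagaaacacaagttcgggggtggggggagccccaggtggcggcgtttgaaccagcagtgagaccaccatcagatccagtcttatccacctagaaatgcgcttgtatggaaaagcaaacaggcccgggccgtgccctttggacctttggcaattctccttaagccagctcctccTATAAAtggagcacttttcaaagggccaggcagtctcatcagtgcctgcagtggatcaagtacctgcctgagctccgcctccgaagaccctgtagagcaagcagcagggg
The letters searched for on both strands were AGGTCA (a nuclear receptor core motif, in 16.3% of 32851 promoter windows of this length), CAAAGTCCA (an HNF4 motif, 0.475%), TATAAA (the TATA box, 13.6%), TTGCGCAA (a C/EBP motif, 0.183%) and TGTTTAC (a forkhead motif, 3.65%). The Apoa2 window printed here holds TATAAA starting at -212 and TGTTTAC starting at -77 from the transcript start, and the Apob window holds TATAAA starting at -60. The Apoa1 and Apoe windows printed here, and the Apoa4 window, hold none of these letters. The table has more than 1 window for Apoa2 and for Apoe, with AGGTCA in the other Apoa2 window, and TGTTTAC in 1 and TATAAA in 1 of the other Apoe windows. Apoc3 was not matched.

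Values are log2 of a normalised count plus 1, read as quantile-normalised across the 24 libraries, which ties a value to a gene's rank. The tie was not exact here. At rank 7, Apoe was 12.65 in TGA number 1 of class 2, and Apoa1 was 10.19 in TGA number 3 of class 8. At rank 6, Apoa1 was 10.52 in TGA number 2 of class 4, and Apoe was 12.89 in TGA number 2 of class 8. Equal values of Apoa1 in several libraries stood at equal ranks. The libraries listed 1624 to 15147 genes above 0, and 54.1% of the values of tested genes were 0. The libraries with over 7000 genes above 0 were WT number 1 of class 2 (15147), WT number 1 of class 4 (14469), TGA number 3 of class 8 (9096) and WT number 4 of class 2 (7570). Genes used by every cell were often listed at 0, among them Actb in 14, Gapdh in 19, Rplp0 in 17 and Eef1a1 in 5 of 24 libraries. A member listed at 0 may therefore not have been captured, and the sequencing depth is unknown.

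Apoa1, which builds high-density lipoprotein and activates lecithin-cholesterol acyltransferase, was higher in TGA livers than in WT livers. In class 2 the TGA libraries 1 to 4 had log2 values of 14.40, 14.40, 13.27 and 14.40, and the WT libraries had 12.73, 8.08, 9.47 and 8.32. In class 4 the TGA libraries had 12.08, 10.52, 12.98 and 13.71, and the WT libraries had 13.42, 8.65, 8.50 and 7.87. In class 8 the TGA libraries had 13.71, 13.71, 10.19 and 14.40, and the WT libraries had 8.76, 8.67, 8.86 and 9.95. The groups did not overlap in classes 2 and 8, and in class 4 WT number 1 lay above 3 of the 4 TGA libraries. Within a library Apoa1 ranked 3 to 8 among all genes in TGA (median rank 4) and 5 to 73 in WT (median rank 39). Group means, from high to low, were 14.12 ± 0.56 in TGA class 2, 13.00 ± 1.90 in TGA class 8, 12.32 ± 1.38 in TGA class 4, 9.65 ± 2.14 in WT class 2, 9.61 ± 2.56 in WT class 4 and 9.06 ± 0.60 in WT class 8 (SD, n = 4 each). Every neighbouring pair in that order overlapped in its libraries.

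**Figure D1:**
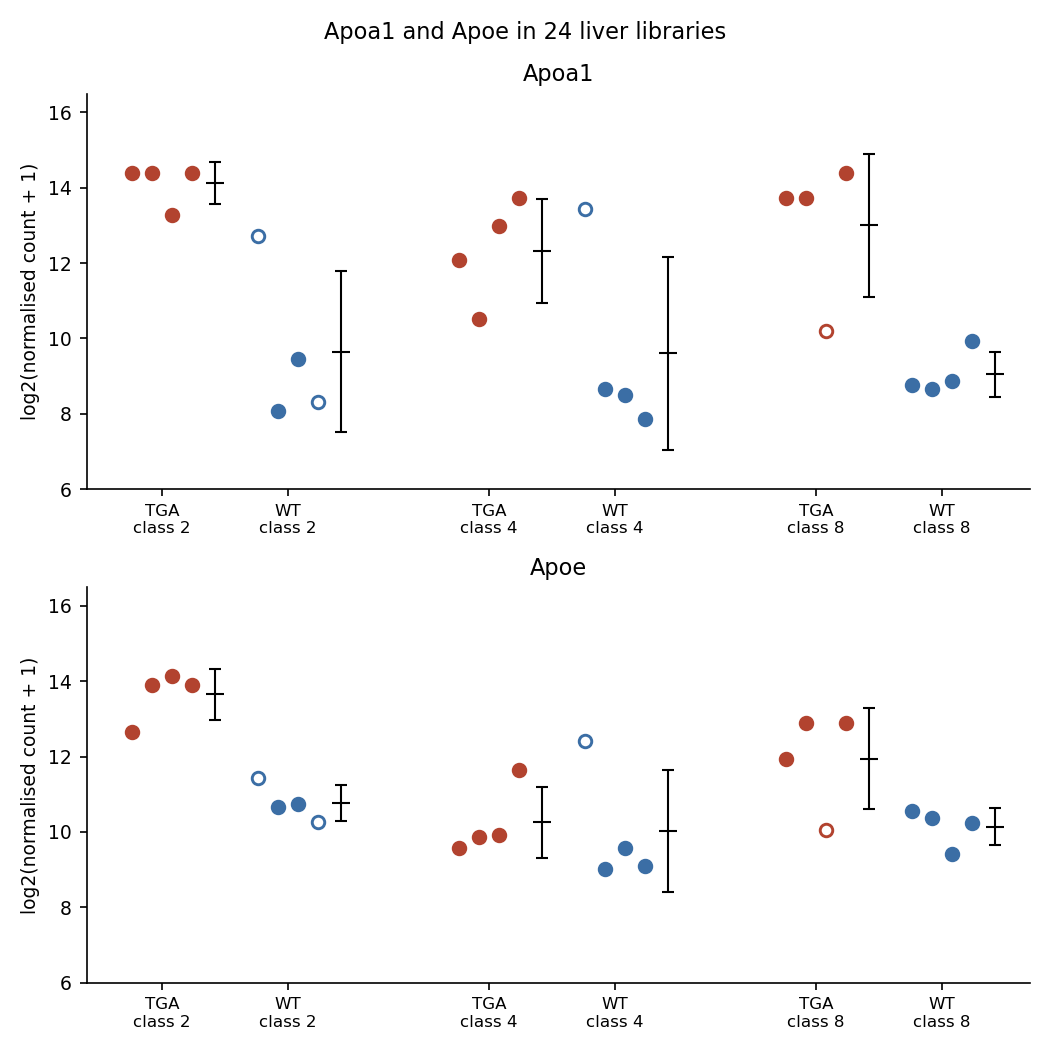
Log2 value (normalised count plus 1) of Apoa1 and Apoe in each of the 24 libraries, by class and genotype, with the 4 points of a group in number order and bars for the mean ± SD. Open symbols are libraries with over 7000 genes above 0: for Apoa1, WT number 1 stands above the other WT libraries in classes 2 and 4, at 12.73 and 13.42.

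Averaged over the 3 classes, Apoa1 was 13.15 ± 0.85 in TGA and 9.44 ± 1.48 in WT (SD of the 4 means by number, n = 4 each). The lowest TGA mean was 12.15 and the highest WT mean was 11.64, so the means did not overlap, as was the case in the same direction for 0.944% of all tested genes. The difference was 3.71 on the log2 scale (SE 0.43, limma, Benjamini-Hochberg adjusted p = 2.73e-11), and the two-sided exact permutation p was 0.0286, the smallest that 4 against 4 allows. The SE pools the spread over genes, and from the spread of Apoa1 alone it would be 0.85. Without limma's trend of spread on level the adjusted p was 0.0836. By class, the difference passed in class 2 (4.47, SE 0.89, adjusted p = 0.0147) and did not pass in class 8 (3.95, SE 0.89, adjusted p = 0.0937) or in class 4 (2.71, SE 0.89, adjusted p = 1.0), all by limma with Benjamini-Hochberg adjustment. The exact permutation p was 0.0286 in class 2, 0.114 in class 4 and 0.0286 in class 8. The class 2 call was lost on leaving out TGA number 2 (adjusted p = 0.0591) or 4 (0.0893), or WT number 2 (0.191), 3 (0.0533) or 4 (0.125), with limma differences of 3.94 to 4.41. The class 8 difference passed on leaving out TGA number 3 (limma adjusted p = 0.0124), WT number 1 (0.037) or WT number 4 (0.0459), with limma differences of 3.85 to 4.88.

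The Apoa1 comparisons were repeated without the 4 libraries with over 7000 genes above 0. Among these, WT number 1 was at 12.73 in class 2 and 13.42 in class 4, and WT number 4 of class 2 was at 8.32. The other, TGA number 3 of class 8, was at 10.19. Without these 4 libraries the TGA libraries lay between 10.52 and 14.40 (13.42 ± 1.20, SD, n = 11 libraries) and the WT libraries between 7.87 and 9.95 (8.75 ± 0.64, SD, n = 9 libraries), with no overlap in any class. WT class 2 then kept only numbers 2 and 3, WT class 4 numbers 2, 3 and 4, and TGA class 8 numbers 1, 2 and 4. The share of all tested genes without overlap in these smaller groups was not counted. The limma differences were then 4.62 over the classes, 5.34 in class 2, 3.98 in class 4 and 4.88 in class 8, with adjusted p of 8e-09, 2.02e-05, 0.00031 and 9.28e-06. This cut took out the highest WT libraries for Apoa1, number 1 of classes 2 and 4. These values therefore hold only for the libraries kept and add no independent support. Leaving out WT number 1 alone gave 4.44 over the classes, and 3.98 with an adjusted p of 0.00514 in class 4.

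Apoe, the receptor ligand of remnant particles, was also higher in TGA livers over the classes, by a smaller difference. In class 2 the TGA libraries 1 to 4 had log2 values of 12.65, 13.90, 14.15 and 13.90, and the WT libraries had 11.43, 10.67, 10.75 and 10.27. In class 4 the TGA libraries had 9.58, 9.87, 9.92 and 11.66, and the WT libraries had 12.42, 9.01, 9.57 and 9.10. In class 8 the TGA libraries had 11.95, 12.89, 10.05 and 12.89, and the WT libraries had 10.54, 10.37, 9.42 and 10.24. Every class 2 TGA library lay above every WT library of that class, and the genotypes overlapped in classes 4 and 8. Group means, from high to low, were 13.65 ± 0.68 in TGA class 2, 11.94 ± 1.34 in TGA class 8, 10.78 ± 0.48 in WT class 2, 10.26 ± 0.94 in TGA class 4, 10.14 ± 0.50 in WT class 8 and 10.03 ± 1.62 in WT class 4 (SD, n = 4 each). All neighbours in that order overlapped in their libraries. Apoe ranked 3 to 20 within a TGA library (median rank 7.5) and 8 to 33 within a WT library (median rank 16).

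Averaged over the classes, Apoe was 11.95 ± 0.70 in TGA and 10.32 ± 0.77 in WT (SD of the 4 means by number, n = 4 each). The lowest TGA mean, 11.37, was under the highest WT mean, 11.46, so the means overlapped. The difference was 1.63 (SE 0.43, limma, Benjamini-Hochberg adjusted p = 0.0455), with a two-sided exact permutation p of 0.0857. The limma call did not hold under 11 of the 18 alternatives run, where the adjusted p was between 0.0552 and 0.499, among them leaving out TGA number 2 (0.183) or 4 (0.499), or WT number 2 (0.104), 3 (0.171) or 4 (0.232). It was 0.0118 without WT number 1, where the difference was 2.02, and 0.00527 without the libraries of over 7000 genes, where it was 2.08. Both settings left out the highest WT libraries for Apoe, number 1 of classes 2 and 4. Within class 2 the difference was 2.87 (SE 0.67, limma, Benjamini-Hochberg adjusted p = 0.0820, exact permutation p = 0.0286). It was 1.80 in class 8 (SE 0.67, adjusted p = 0.378, exact permutation p = 0.114) and 0.23 in class 4 (SE 0.67, adjusted p = 1.0).

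Apoe passed the test between classes. Over both genotypes it fell by 2.07 on the log2 scale in class 4 against class 2 (SE 0.48, limma, Benjamini-Hochberg adjusted p = 0.0390), and permuting class labels within genotype gave an exact p of 0.0082. It was 1 of 6 members called in that comparison, in which 0.308% of all tested genes were called. Within TGA it fell by 3.39 (SE 0.67, limma, Benjamini-Hochberg adjusted p = 0.0192, exact permutation p = 0.0286), where 0.841% of tested genes were called, and the class 4 libraries lay below every class 2 library. The TGA class 4 libraries listed 1624 to 3440 genes above 0, with 62.1% to 76.7% of the values of tested genes at 0, and the TGA class 2 libraries 2816 to 6468 genes, with 32.9% to 59.1% at 0. With the number of genes above 0 as a covariate, limma did not call Apoe within TGA or over both genotypes. The summed level (log2) of 15 hepatocyte markers was 11.11 to 13.24 in TGA class 4 and 12.82 to 14.16 in TGA class 2. The part of these markers in the Apoe difference within TGA was not tested. Within WT the difference was -0.76, which did not pass. Leaving out any number other than WT number 1 lost the call over both genotypes (limma adjusted p between 0.0582 and 0.184, differences -2.26 to -1.92), and leaving out TGA number 1, 2 or 3 lost it within TGA (0.0647, 0.168 and 0.086). The difference between these class differences was -2.64 (SE 0.95, limma, Benjamini-Hochberg adjusted p = 0.767), so the change was not shown to differ between genotypes. In class 8 against class 2 the Apoe difference over both genotypes was -1.17 (adjusted p = 0.5295 by limma with Benjamini-Hochberg adjustment, exact permutation p = 0.0086).

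Apoa2, the other main protein of high-density lipoprotein, was listed above 0 in 8 of 12 TGA libraries and in 3 of 12 WT libraries. In class 2 it was 5.21, 5.38, 3.66 and 4.72 in TGA, and 4.38, 0, 0 and 0 in WT. In class 4 it was 0, 5.73, 3.30 and 5.48 in TGA, and 5.06, 6.11, 0 and 0 in WT. In class 8 it was 0, 0, 0 and 0.99 in TGA, and 0 in all 4 WT libraries. The TGA class 2 libraries were thus all above 0, whereas 1 of the 8 class 8 libraries was. Over the classes the difference between TGA and WT was 1.58 (SE 0.95, limma, Benjamini-Hochberg adjusted p = 0.596). In TGA class 8 against TGA class 2 the libraries did not overlap, and the difference was -4.49 (SE 1.47, limma, Benjamini-Hochberg adjusted p = 0.280, exact permutation p = 0.0286). In that comparison 2.56% of tested genes were lower without overlap.

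Apoa4 was at 0 in 2 libraries of each genotype. In class 2 it was 7.94, 9.35, 10.79 and 10.91 in TGA, and 8.33, 7.59, 8.62 and 5.61 in WT. In class 4 it was 0, 0, 6.89 and 7.60 in TGA, and 8.97, 3.71, 8.16 and 0 in WT. In class 8 it was 7.71, 6.92, 8.76 and 10.10 in TGA, and 8.09, 6.35, 0 and 5.87 in WT. Apoa4 was high in the class 2 TGA libraries, and all 4 class 4 TGA libraries lay below them. The genotypes overlapped in every class, with a difference of 1.31 over the classes (SE 0.99, limma, Benjamini-Hochberg adjusted p = 0.659). In class 4 against class 2 the difference was -4.23 over both genotypes (SE 1.22, limma, Benjamini-Hochberg adjusted p = 0.120, exact permutation p = 0.0204). Within TGA it was -6.12 (SE 1.72, limma, Benjamini-Hochberg adjusted p = 0.0682, exact permutation p = 0.0286) and within WT -2.33.

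Apob, which forms the backbone of very-low-density lipoprotein, was above 0 in 10 of 12 TGA libraries and in 6 of 12 WT libraries. In class 2 it was 7.47, 7.79, 8.13 and 7.76 in TGA, and 7.30, 0, 0 and 4.44 in WT. In class 4 it was 5.15, 5.81, 0 and 6.77 in TGA, and 7.25, 7.70, 0 and 0 in WT. In class 8 it was 0, 4.44, 1.77 and 7.61 in TGA, and 0, 6.23, 0 and 3.21 in WT. The TGA class 2 libraries lay close together and above every WT class 2 library, and the genotypes overlapped in classes 4 and 8. The difference between TGA and WT was 2.21 over the classes (SE 1.10, limma, Benjamini-Hochberg adjusted p = 0.546, exact permutation p = 0.200) and 4.85 in class 2 (SE 1.91, adjusted p = 0.485, exact permutation p = 0.0286). In TGA class 4 against TGA class 2 it was -3.36 (limma, Benjamini-Hochberg adjusted p = 0.415, exact permutation p = 0.0286).

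Apoc3, the inhibitor of lipoprotein lipase, was low and scattered in both genotypes. In class 2 it was 0.97, 0.33, 6.42 and 5.66 in TGA, and 2.99, 4.82, 0 and 0.22 in WT. In class 4 it was 0, 1.52, 0 and 3.82 in TGA, and 3.75, 0, 1.54 and 1.69 in WT. In class 8 it was 1.63, 3.21, 0.13 and 0 in TGA, and 0, 1.0, 0 and 1.34 in WT. The genotypes overlapped in every class, and the difference over the classes was 0.53 (SE 0.89, limma, Benjamini-Hochberg adjusted p = 0.863). Apoa1, Apoc3 and Apoa4 lie next to each other on chromosome 9, in that order, followed by Apoa5, a regulator of triglyceride breakdown. Apoa5, named here for its place after its values were seen, differed by 0.15 between TGA and WT over the classes (SE 0.97, limma, Benjamini-Hochberg adjusted p = 0.967). Apoe lies next to Apoc1 on chromosome 7.

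**Figure D2:**
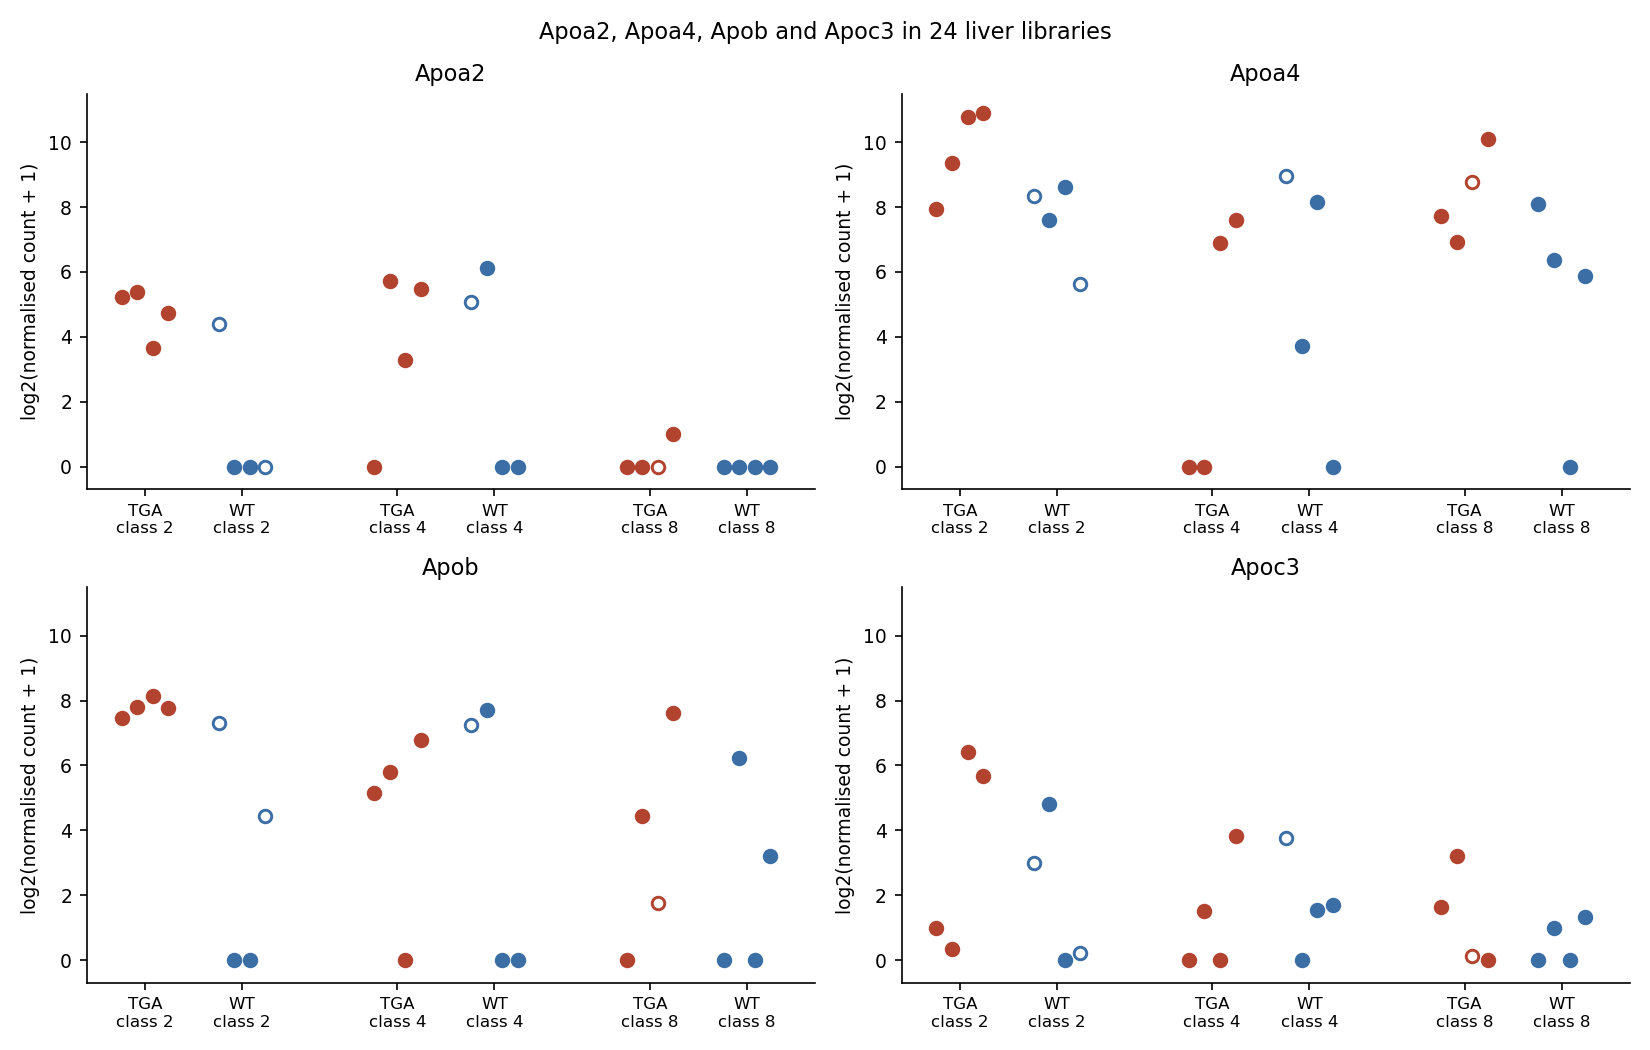
Log2 value (normalised count plus 1) of Apoa2, Apoa4, Apob and Apoc3 in each of the 24 libraries, by class and genotype, with the 4 points of a group in number order. Open symbols are libraries with over 7000 genes above 0, and points on the baseline are listed at 0: Apoa2 is there in 7 of 8 class 8 libraries.

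Set side by side, 2 of the 6 members passed the test of TGA against WT over the classes, Apoa1 and Apoe, where 0.492% of all tested genes were called. All 6 were higher in TGA, with a median difference of 1.60 against 0.11 over all tested genes, of which 54.7% were higher. In class 2, 1 of 6 was called (0.103% of all tested genes), and 3 of 6, Apoa1, Apob and Apoe, were higher in TGA without overlap, as were 1.09% of all tested genes. In class 8, 0 of 6 were called by limma (0.0205% of tested genes) and 2 of 6, Apoa1 and Apoe, had an unadjusted p under 0.05 (9.76% of tested genes), and Apoa1 alone was higher without overlap, as were 1.62% of tested genes. In class 4, 0 of 6 were called by limma (0.0205% of tested genes) and 1 of 6, Apoa1, had an unadjusted p under 0.05 (4.25% of tested genes), and Apoa4 and Apoc3 had differences of -1.59 and -0.41. The median difference of the 6 members was 3.26 in class 2, 0.46 in class 4 and 1.45 in class 8, beside 0.15, -0.15 and 0.11 over all tested genes.

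**Figure D3:**
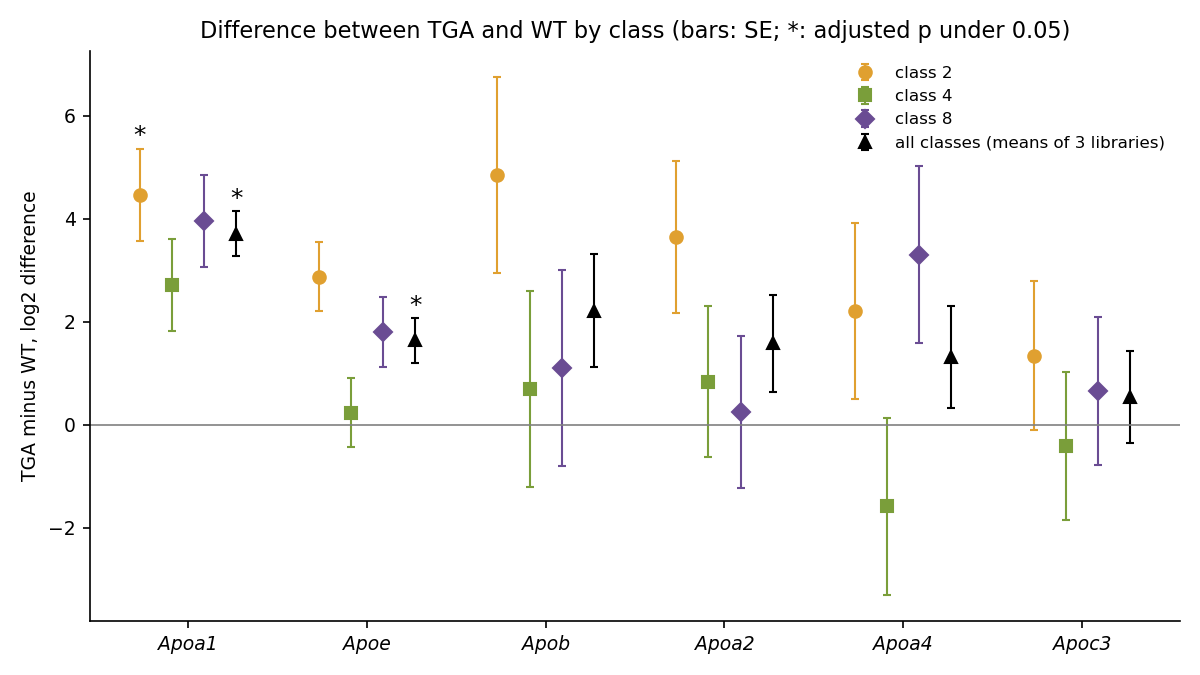
Log2 difference of TGA minus WT for each member, in class 2, class 4 and class 8 and over all classes, with bars of 1 SE from limma and a star where the adjusted p was under 0.05. Apoa1 and Apoe over the classes, and Apoa1 in class 2, passed the test.

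In class 4 against class 2 over both genotypes 5 of 6 members were lower, as were 57.8% of all tested genes. The median difference was -1.21 beside -0.23 over all tested genes. In class 8 against class 2 all 6 were lower, as were 56.1% of all tested genes, and the median was -1.84 beside -0.16. There 0 of 6 were called by limma (0.0205% of tested genes), with 2 of 6, Apoa2 and Apoe, at an unadjusted p under 0.05 (7.36% of tested genes). These 2 comparisons share the class 2 libraries. In class 8 against class 4 the members ran both ways, and 0 of 6 were called by limma (0.0% of tested genes), with 1 of 6, Apoa2, at an unadjusted p under 0.05 (6.58% of tested genes). Within TGA, Apoa4, Apob and Apoe were lower in class 4 than in class 2 without overlap, as were 6.4% of tested genes. In the class comparisons within WT, and in class 8 against class 2 or class 4 within TGA, 0 of 6 members were called by limma. Nor were any called in the tests of a difference between genotypes, and in each of these comparisons 0.0% of all tested genes were called. At an unadjusted p under 0.05, the members within WT were 0 of 6 in class 4 against class 2 (4.64% of tested genes), in class 8 against class 2 (4.86%) and in class 8 against class 4 (4.57%). Within TGA they were 3 of 6 in class 8 against class 2 (7.14% of tested genes) and 3 of 6 in class 8 against class 4 (7.77%). In the tests of a difference between genotypes they were 1 of 6, Apoe, for class 4 against class 2 (6.34% of tested genes), and 0 of 6 for class 8 against class 2 (4.06%) and for class 8 against class 4 (4.68%).

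**Figure D4:**
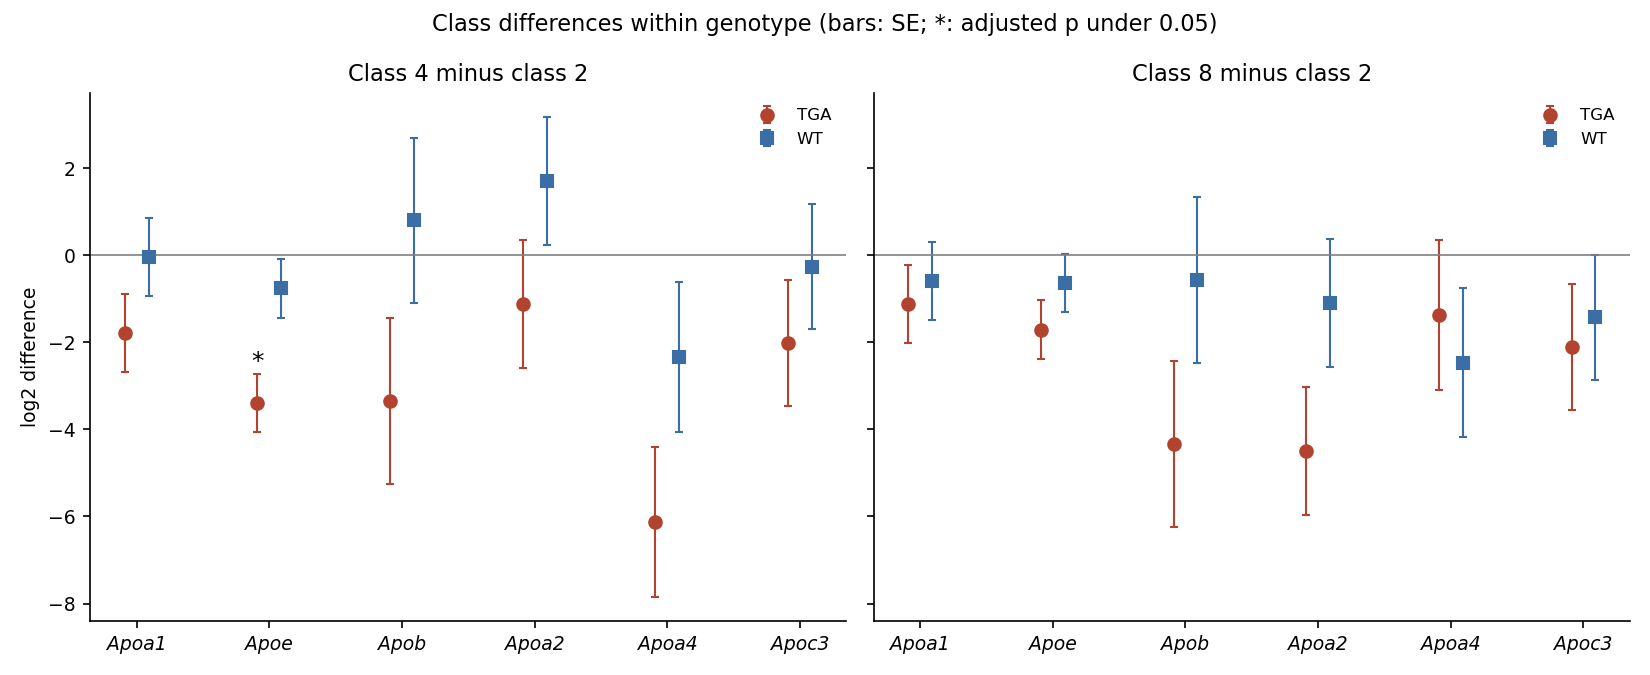
Log2 difference of class 4 minus class 2 and of class 8 minus class 2 for each member, within TGA and within WT, with bars of 1 SE from limma. The star marks Apoe in class 4 against class 2 within TGA, at -3.39, the only one of these that passed the test.

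Over the 24 libraries the log2 values of Apoa1 and Apoe ran together (Pearson r = 0.802, with 0.77 within the 12 TGA and 0.802 within the 12 WT libraries), as did those of Apoa4 and Apoe (r = 0.714) and of Apoa2 and Apob (r = 0.701). These are descriptions over libraries that share normalisation and numbers of genes detected, and each member's correlation with the number of genes above 0 was between 0.187 and 0.368. Over the 20 libraries with up to 7000 genes it was between 0.311 and 0.553, with 0.466 for Apoe. The genes most like Apoa1 were Trf, which encodes the iron carrier transferrin (r = 0.913), Itih1, a plasma hyaluronan-binding protein (r = 0.890), and Ptms (r = 0.881). Those most like Apoe were Col18a1, a basement membrane collagen (r = 0.861), Cmtm6 (r = 0.860) and the nuclear RNA Malat1 (r = 0.850). Apoa4 was most like G6pc, the glucose-6-phosphatase of glucose release (r = 0.899), Cebpb (r = 0.740) and Cpox (r = 0.723). Apob was most like Mgat2 (r = 0.793), Optn (r = 0.788) and Pard3 (r = 0.787), and Apoc3 most like Nbr1 (r = 0.832), Nono (r = 0.765) and Bckdhb (r = 0.732). Apoa2 was above 0 in 11 libraries and was not ranked.

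Other hepatocyte products moved with Apoa1 and Apoe. A list of 15 hepatocyte markers, among them Alb, Ttr, Trf and the fibrinogen genes, had 14 members higher in TGA over the classes, of which 4 passed the test, beside 54.7% of all tested genes higher and 0.492% called. Its summed level (log2) was between 11.06 and 14.16 in TGA libraries (median 13.08) and between 9.89 and 13.69 in WT libraries (median 10.72). The WT libraries numbered 1 had sums of 12.73 in class 2 and 13.69 in class 4, the highest of WT, and those were the highest WT libraries for Apoa1 too. Over 24 libraries the sum correlated with Apoa1 at r = 0.942, with Apoe at 0.857, with Apob at 0.624, with Apoa4 at 0.592, with Apoa2 at 0.557 and with Apoc3 at 0.462. Within the 12 TGA libraries r was 0.879 for Apoa1 and 0.839 for Apoe, and within the 12 WT libraries it was 0.918 and 0.83. In bulk RNA, fewer cells of a type and less RNA per cell cannot be told apart. Alb itself, the defining hepatocyte product, was above 0 in all 12 TGA libraries and listed at 0 in 5 of 12 WT libraries. There it may not have been captured, and poorer capture cannot be told apart from the other 2 either. The part of this list in the differences of the members was not tested.

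**Figure D5:**
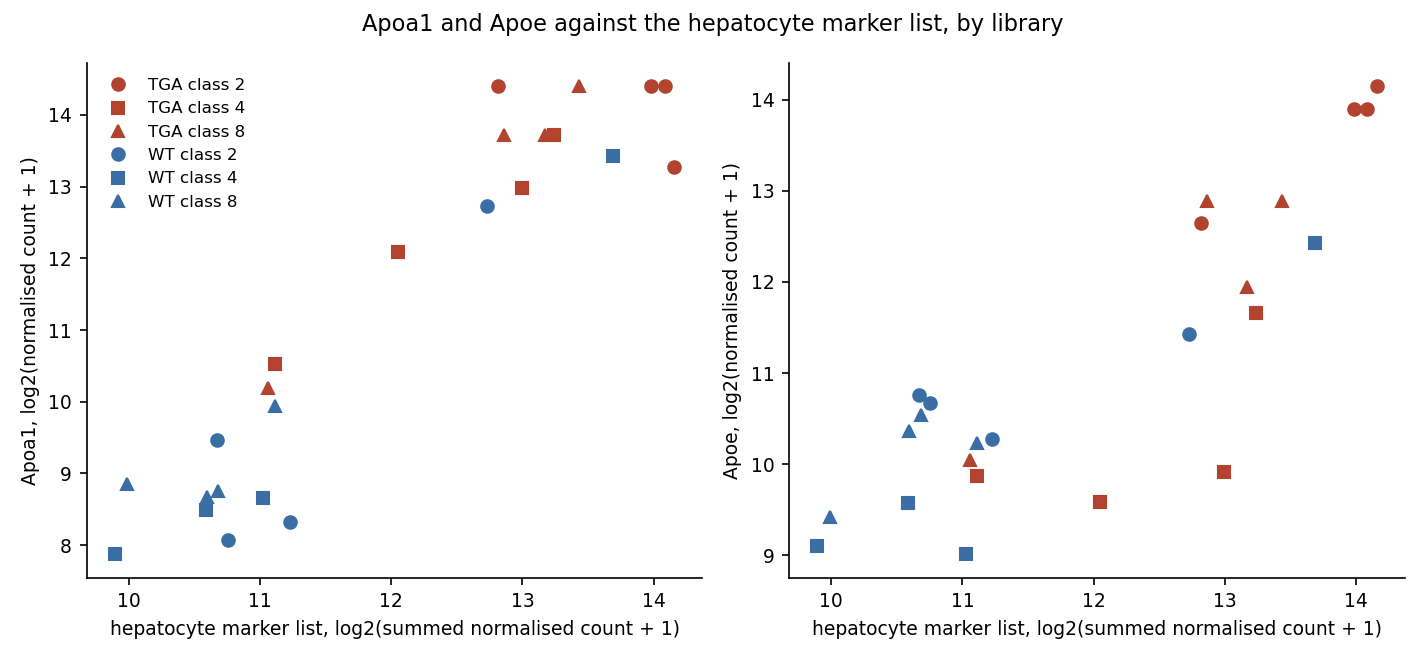
Log2 value of Apoa1 and of Apoe against the log2 summed level of 15 hepatocyte markers in the 24 libraries, with TGA in red and WT in blue and the class as the symbol. Both rise along the sum, with r = 0.942 for Apoa1 and 0.857 for Apoe.

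Markers of other liver and blood cells were listed at 0 in many libraries, where they may not have been captured, as with Actb and Gapdh above. The 9 Kupffer cell and macrophage markers had a median sum of 0 in both genotypes, with 6 of 9 at 0 in every TGA library and 3 of 9 in every WT library. The 8 stellate cell and fibroblast markers had a median sum of 0 in TGA and 2.38 in WT, and the 8 endothelial markers 0.88 in TGA and 3.25 in WT. The 5 cholangiocyte markers had medians of 0.50 in TGA and 0 in WT, and the 6 lymphocyte markers 0 in TGA and 0.31 in WT. The 5 erythroid and the 4 neutrophil markers had medians of 0 in both genotypes. Of these lists only the endothelial one had tested genes, 2 of 8, and neither passed.

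Genes that act with the apolipoproteins were examined in 5 lists, and in TGA against WT over the classes 0 of their 58 tested genes passed by limma, with 5 of 58 at an unadjusted p under 0.05, near the 8.88% of all tested genes. Of 11 tested genes among 18 other apolipoproteins and lipoprotein-bound proteins, 8 were higher and 3 lower in TGA, with a median difference of 0.61. The largest were Saa4 (1.70), Apoc1 (0.74) and Apon (0.70). Of 15 tested among 22 genes of lipoprotein assembly and secretion, 12 were higher and 3 lower, with a median of 0.35. There Hspa5, the chaperone BiP of the endoplasmic reticulum, differed by 3.06 (SE 1.10, limma, Benjamini-Hochberg adjusted p = 0.309) and was above 0 in 12 TGA and 6 WT libraries. It passed in 1 of the 18 alternatives run, without WT number 1, where it differed by 4.25 (limma adjusted p = 0.0223). Over the 18 the Hspa5 difference was between 1.48 and 4.25, with limma adjusted p up to 0.755. A1cf, a factor of Apob mRNA editing, differed by -2.59 (SE 0.91, limma, Benjamini-Hochberg adjusted p = 0.294) and was above 0 in 4 TGA and 11 WT libraries, and Cideb, which loads lipid on very-low-density lipoprotein, differed by 1.65. Of 6 tested among 13 genes of high-density lipoprotein lipidation, 5 were higher and 1 lower, with a median of 0.42, led by the cholesterol exporter Abca1 (1.49), Bmp1 (0.75) and Gpld1 (0.63). Of 8 tested among 16 receptor and lipase control genes, 6 were higher and 2 lower, with a median of 1.10, led by the remnant receptor Lrp1 (2.17, SE 0.94, limma, Benjamini-Hochberg adjusted p = 0.468), Angptl8 (1.67) and Lsr (1.59).

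Of 18 tested among 27 transcription factors known to act on apolipoprotein genes, 14 were higher and 4 lower in TGA over the classes, with a median of 0.61. Mlxipl, the carbohydrate-responsive factor ChREBP, and Hnf4a, a hepatocyte regulator of apolipoprotein genes, each differed by 2.08, and Prox1 by 1.63. In class 4 against class 2, 13 of the 18 were lower over both genotypes and 1 passed, with a median of -1.59, beside 57.8% of all tested genes lower, 0.308% called and a median of -0.23. Srebf1, the factor of fatty acid synthesis genes, fell by 4.63 on the log2 scale in that comparison (SE 1.12, limma, Benjamini-Hochberg adjusted p = 0.048). The call was lost under 13 of the 17 alternatives run, with limma adjusted p up to 0.336. Among them was leaving out any number other than WT number 1 (limma adjusted p between 0.0617 and 0.248). Within TGA, Srebf1 was listed at 0 in all 4 class 4 libraries and was 7.07, 7.33, 6.40 and 6.73 in the class 2 libraries 1 to 4. Mlxipl was also listed at 0 in all 4 class 4 libraries and was 7.20, 7.14, 6.63 and 7.01 in the class 2 libraries. Both were called lower in class 4 within TGA (limma, Benjamini-Hochberg adjusted p = 0.044 each). Each call was lost under 12 of the 17 alternatives run, with limma adjusted p up to 0.173 for Srebf1 and 0.184 for Mlxipl. Among them was leaving out any number other than WT number 1 (limma adjusted p between 0.0623 and 0.171). The TGA class 4 libraries had the lowest median number of genes above 0 of the 6 groups, 2650.5, against 4328.5 in TGA class 2, and its part in these zeros was not tested. In the 16 comparisons no other tested gene of the 5 lists was called.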

How the data were processed

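Liver RNA was isolated with an FFPE kit (made for fixed, embedded tissue), and NuGen libraries were read from a single end for 75 bp, per the labels' protocols. TopHat, edgeR and build mm9 are named, per the submitters' processing notes, and the sources used here give no version or role for them. The deposited table holds natural log values, and their normalisation was inferred from the values. The highest value, 16.41 on the log2 scale, was shared by 20 of 24 libraries. The others were all WT. It was 15.45 in number 2 of class 4, and 15.54 in numbers 3 and 4 of class 4 and number 1 of class 8. The part of this in the differences between TGA and WT was not tested. In the 2 libraries with most genes, 942 and 655 genes stood at the level that a count of 1 gives when averaged over 24 libraries. The table was therefore read as quantile-normalised, which ties a value to a gene's rank, though not exactly here, and can hide a shift shared by most genes. Depth is unknown, so no counting interval is given.

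Values were divided by ln 2. A gene was tested if 4 or more libraries had a deposited value of 1 or more, with limma 3.58.1 in R 4.3.3 (trended prior), with Benjamini-Hochberg adjustment over 4875 genes in each of 16 comparisons and a threshold of 0.05. TGA against WT over the classes averaged, for each genotype, the 3 libraries that share a number, since these may come from 1 animal, and the other comparisons used 6 group means. Single members were also tested by two-sided exact permutation. The scripts were tested on simulated data. The members and lists were chosen with earlier results of these data known. All members were named. Of the lists, genes called in any comparison and the 3 with the largest genotype difference were named. For likeness, the 3 genes with the highest correlation were named for members above 0 in at least 12 libraries. Promoters are from RefSeq (GRCm38.p6) and matched 5 of 6 members. That build differs from the study's, so no other coordinates are given. Alternatives were other filters, pseudocount, centring, prior, the number of genes above 0 as covariate, replicate block and left-out libraries.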

Additional observations from a re-analysis of the deposited data

Results flagged for a closer look

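In 47 sets of 4 values of the members (groups of libraries, or means by number), 11 had a highest or lowest value that stood apart from the other 3. Chance flags about 1 in 20 sets of independent values without ties, and some sets here hold tied values or means of the same libraries. For Apoa1 these were log2 values of 13.27 in TGA class 2 (number 3, low), 10.19 in TGA class 8 (number 3, low), 13.42 in WT class 4 (number 1, high) and 9.95 in WT class 8 (number 4, high), and the mean of 11.64 for WT number 1 (high). For Apoe they were 12.65 in TGA class 2 (number 1, low), 11.66 in TGA class 4 (number 4, high), 12.42 in WT class 4 (number 1, high) and the mean of 11.46 for WT number 1 (high). For Apoa2 they were 0.99 in TGA class 8 (number 4) and 4.38 in WT class 2 (number 1), each the only library of its group above 0. WT number 1 of classes 2 and 4 and TGA number 3 of class 8 are among the 4 libraries with over 7000 genes above 0.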

How the results depend on the processing

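Of 907 alternative values of 53 member differences, 827 kept direction and side of the threshold, 41 lost the call, 14 gained it and 25 turned. Of 337 for the 19 differences of listed genes, 293, 37, 1 and 6 did so. The causes were not tested. The number of members called over the classes was 2, and 1 with no filter, a filter of 8 libraries, pseudocount 10, centred libraries or a robust prior, 0 without the trend, and 1 to 2 with a number left out. In class 2 it was 1, and 0 with no filter, pseudocount 10 or no trend, 2 with the covariate or without the libraries of over 7000 genes, and 0 to 2 with a number left out. In class 4 it was 0, and 1 without those libraries and 0 to 1 with a number left out. In class 8 it was 0, and 1 when centred, 2 without those libraries and 0 to 1 with a number left out. For class 4 against class 2 it was 1, and 0 with no filter, pseudocount 10, centring, the covariate, no trend or a robust prior, and 0 to 1 with a number left out. Within TGA it was 1, and 0 with no filter, centring, the covariate, no trend or a robust prior, and 0 to 1 with a number left out. In the other 10 comparisons it was 0 throughout. Over all genes the calls were 24 over the classes (5 to 95 over the alternatives), 5 in class 2 (0 to 50), 1 in class 4 (0 to 9), 1 in class 8 (0 to 14), 15 for class 4 against class 2 (0 to 36), 41 within TGA (0 to 79), 1 for class 8 against class 2 (0 to 4) and 0 for class 8 against class 4 (0 to 5).

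Whether a number marks 1 animal is not stated, and the values did not settle it. Of same-number pairs of classes within a genotype, 2 of 24 had deviations correlated above 0.1 (-0.0965 to 0.432, median 0.0325). Of different-number pairs 2 of 72 had (-0.210 to 0.119, median -0.0142). Of same-number pairs of genotypes 0 of 4 had (-0.221 to 0.0402), but a TGA and a WT library cannot come from 1 animal. With a replicate block the members called by limma were 2 over the classes, 1 in class 8 (Apoa1, adjusted p = 0.029) and 2 for class 4 against class 2 within TGA (Apoe, and Apoa4 at 0.0374), and the genes called there were 17, 2 and 63. For TGA against WT this block joined TGA and WT libraries of the same number. Nothing states such a link, so the calls with the block over the classes and in class 8 rest on an arbitrary pairing.

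Turned differences were uncalled. For TGA minus WT in class 4, Apob was -0.0076 with pseudocount 10 and Apoc3 0.26 without the libraries of over 7000 genes, and with a number left out Apoa2 was -0.10 to 2.04, Apob -0.55 to 2.17, Apoc3 -1.24 to 0.26 and Apoe -0.23 to 1.03. In class 8 Apoa2 was -0.025 with the covariate, and Apob -0.29 to 2.38 with a number left out. For class 4 against class 2 the ranges with a number left out were -0.45 to 0.97 for Apoa2 and, within WT, -1.50 to 2.55 for Apob. For class 8 against class 2 Apoa1 was 0.056 without the libraries of over 7000 genes, and against class 4 it was -0.021 when centred and -0.37 to 0.75 with a number left out. Over the classes, with a number left out, Apoa5 was -0.40 to 0.59, Apoc1 -0.050 to 1.34 and Gpld1 -0.040 to 1.27.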
